A study of Mus musculus with 18 samples.

Results

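Interferon response genes are described here as a set of 42 genes, chosen by symbol: the transcription factors that carry an interferon signal into the nucleus, the sensors of foreign nucleic acid, and the antiviral effectors and GTPases that interferons induce. All 42 were found among the 54186 gene symbols of the deposited count table. Each also passed the filter on low counts, which kept 20244 genes for testing.

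The study sequenced RNA from bulk pancreatic islets, the clusters of hormone-secreting cells in the pancreas, of FVB mice aged 6 weeks. It had 18 libraries in 3 groups of 6, with 1 library per mouse: wild-type mice (WT), mice carrying a transgene for human islet amyloid polypeptide (hIAPP), and mice carrying a transgene for the rodent form of that peptide (rIAPP). The insulin II promoter drove both transgenes, so that they were expressed in beta cells, while the RNA came from every cell type in the islet preparation. Human IAPP is known to aggregate and the rodent form is not, so the rIAPP mice are a control for carrying an IAPP transgene. The labels used here name neither a transgene copy number nor a sex, and all 3 groups share the FVB background.

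Interferons are secreted proteins that bind receptors on the same or neighbouring cells. Type I interferon receptors activate the kinases JAK1 and TYK2, which phosphorylate STAT proteins, STAT2 among them, and these join IRF9 in a complex that binds the interferon-stimulated response element in gene promoters. Type II interferon, IFNG, signals through STAT pairs that bind a different element, the gamma-activated site. In islets this pathway is best known from type 1 diabetes and from viral infection of beta cells.

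The response element is visible in the promoters of part of the set. RefSeq promoter windows, from 250 bases before to 50 after the start of the gene (build GRCm38.p6), were matched for 32 of the 42 genes. Parp14, Oas2, Parp9, Iigp1, Mx2, Ifi27, Dhx58, Usp18, Zbp1 and Mx1 had no entry. The core of the element was searched as GAAANNGAAA on both strands. Overlapping matches were counted separately, and in print their capitals run together. Stretches of 8 windows are shown because they carry that core in genes described below, from several roles: Isg15, the antiviral effectors Rsad2, Oas1a, Ifit3 and Ifit3b, and the GTPases Gbp2, Irgm1 and Igtp. Each is printed 5′ to 3′ on the strand of its gene, with the matches in capitals and up to 20 bases on each side, all before the start of the gene.

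Isg15: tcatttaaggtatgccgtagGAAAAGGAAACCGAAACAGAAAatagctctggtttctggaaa
Rsad2: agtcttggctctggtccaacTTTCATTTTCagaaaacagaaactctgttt
Oas1a: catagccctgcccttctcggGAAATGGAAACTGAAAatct
Ifit3: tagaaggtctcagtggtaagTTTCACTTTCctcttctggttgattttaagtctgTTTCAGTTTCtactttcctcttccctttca
Ifit3b: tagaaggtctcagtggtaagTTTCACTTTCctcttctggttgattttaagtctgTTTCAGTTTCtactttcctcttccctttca
Gbp2: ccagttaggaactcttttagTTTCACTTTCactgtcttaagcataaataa
Irgm1: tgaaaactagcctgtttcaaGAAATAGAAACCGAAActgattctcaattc
Igtp: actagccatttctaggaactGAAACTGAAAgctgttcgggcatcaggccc

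The Isg15 stretch lies at chr4:156200855-156200916 (reverse strand), and holds 3 overlapping matches in a row. Rsad2 is shown from chr12:26456543-26456592 (reverse strand), and Oas1a from chr5:120907526-120907565 (reverse strand). Ifit3 comes from chr19:34583353-34583436 (forward strand), and Ifit3b from chr19:34607749-34607832 (forward strand). The 2 IFIT stretches are identical in 84 of 84 bases, and the whole windows in 201 of 268 compared bases (75%) at a shift of 32 bases. Of the GTPases, Gbp2 is from chr3:142620584-142620633 (forward strand), Irgm1 from chr11:48871421-48871470 (reverse strand) and Igtp from chr11:58199502-58199551 (forward strand). In Rsad2, Gbp2, Ifit3 and Ifit3b the core reads in the opposite direction, as TTTCNNTTTC.

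The core stood in a window of 16 of the 32 matched genes, or 50%, against 3.99% of the 27025 genes with a RefSeq window. The palindrome TTCNNNGAA, the core of the gamma-activated site, stood in a window of 10 of the 32 genes (31.2%) against 9.55% of those genes. A match describes the letters of the window only. Genes with and without the response element core are compared after the main counts.

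**Figure D1:**
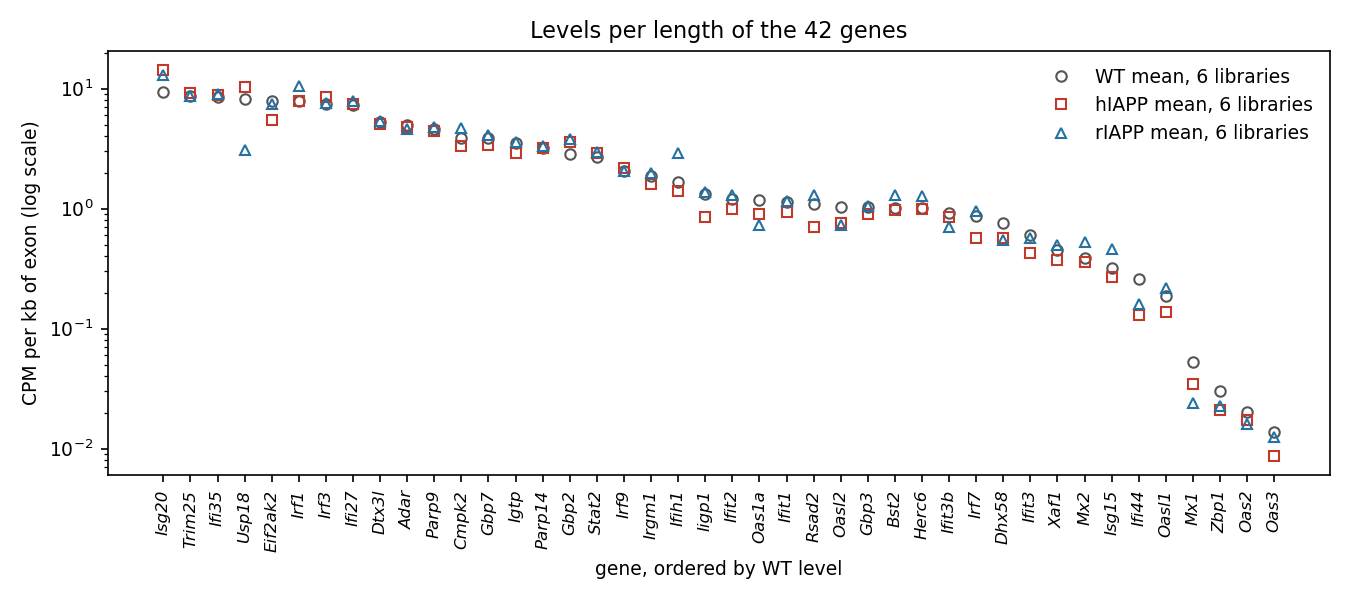
Mean level of each of the 42 interferon response genes in WT, hIAPP and rIAPP islets, in CPM per kilobase of exon, on a log axis, ordered by WT level. Isg20 is highest in all 3 genotypes (9.40 in WT) and Oas3 lowest in WT (0.0139).

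Islets of WT mice expressed the set over a wide range. Levels of different genes were compared as CPM, counts scaled to a common library size, per kilobase of exon, with exon lengths from the GENCODE M21 annotation of GRCm38. In WT islets, 9 genes were over 5, 20 were at 1 to 5, 9 were at 0.1 to 1 and 4 were under 0.1. The highest was Isg20, an RNA exonuclease, with 9.40 in WT, 14.3 in hIAPP and 13.1 in rIAPP islets. Trim25 (8.75), Ifi35 (8.56), Usp18 (8.25), Eif2ak2 (7.95) and Irf1 (7.87) followed in WT, and these 5 differed among themselves by less than the SD of Trim25 over the 6 libraries (0.941). At the other end, Mx1 (0.0532), Zbp1 (0.0305), Oas2 (0.0202) and Oas3 (0.0139) were near the limit of counting: all 18 libraries together held 353, 223, 200 and 209 counts of them. Usp18 changed its place in this order, from rank 4 in WT to rank 2 in hIAPP (10.3) and rank 16 in rIAPP islets (3.08). From here on, levels are CPM scaled by TMM, a normalization that equalizes the bulk of genes between libraries, and values in different genes are not compared.

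Depth and cell content set the frame for these comparisons. Total counts per library, rounded, were 144291000 to 166234000 in WT, 109597000 to 141535000 in hIAPP and 127599000 to 157511000 in rIAPP mice. Islet endocrine markers summed to 152758 to 197712 CPM in WT, 92349 to 156907 in hIAPP and 103876 to 140175 in rIAPP libraries, so the labelled tissue was met in every library. Markers of pancreatic acinar cells (16 genes), the exocrine tissue around islets, summed to 975 to 4119 CPM in WT, 2662 to 19097 in hIAPP and 4350 to 19354 in rIAPP libraries. Macrophage markers (12 genes) summed to 165 to 193, 401 to 784 and 115 to 130 CPM in that order, and endothelial markers (10 genes) to 702 to 791, 627 to 714 and 873 to 974 CPM. Dendritic cell markers summed to 7.53 to 11.7, 12.2 to 24.6 and 9.96 to 13.7 CPM. Of 6 such genes tested, 1 passed as higher in each transgenic group against WT and none as lower. Lymphocyte markers summed to 14.3 to 18.4, 9.14 to 21.8 and 4.30 to 7.76 CPM. Of 4 such genes tested, 1 passed as higher in hIAPP and 1 as lower in rIAPP islets against WT. Of all tested genes, 8.31% (hIAPP) and 14.1% (rIAPP) were higher, and 7.53% and 12.6% lower. Stellate and mesenchymal markers (9 genes) summed to 786 to 1116, 1056 to 1945 and 1374 to 2243 CPM. Of the 9, 7 passed as higher in each transgenic group against WT, beside 8.31% (hIAPP) and 14.1% (rIAPP) of all tested genes. Ductal markers summed to 458 to 550.5, 404 to 515 and 505 to 598 CPM, and erythroid markers to 38.4 to 76.7, 22.5 to 45.01 and 18.5 to 39.2 CPM. Of 5 erythroid genes, 3 were lower in each transgenic group against WT, beside 7.53% (hIAPP) and 12.6% (rIAPP) of all tested genes. No marker of any list was at 0 in all libraries of a genotype. Since interferon response genes are expressed by many of these cell types, fewer cells of a type and less RNA per cell cannot be told apart in bulk RNA. The part of these cell types in the results was not tested, except where a fit with the acinar markers is given. Each p-value sets a difference between group means against the spread between mice within groups, estimated over all 18 libraries.

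The first comparison asks which of the genes differ in islets whose beta cells express human IAPP. Against WT, hIAPP islets had 6 of the 42 genes lower (Irf7, Eif2ak2, Oasl2, Rsad2, Ifi44 and Irgm1) and 2 higher (Isg20 and Usp18), at an edgeR adjusted p under 0.05 over all 20244 genes. The other 34 did not pass. The share called was 19.0% of the set, beside 15.8% of all tested genes (8.31% higher and 7.53% lower). The median log2 fold change was -0.23 for the set and -0.01 for all tested genes, and 31 of the 42 estimates were below 0. All hIAPP libraries lay below all WT libraries for Irf7 and Ifi44 and above them for Isg20, or 3 of 42 genes, where 6.63% of all tested genes had groups that did not overlap (3.74% higher and 2.89% lower). Scaled by library totals alone, which moved the median of all genes to 0.11, 4 genes passed as higher and 4 as lower. With the mean log2 level of the acinar markers as a covariate, only Usp18 (higher) and Irf7 (lower) passed, and 749 of all genes did.

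The rIAPP mice asked the same of a transgene for the rodent peptide. Against WT, rIAPP islets had 5 genes higher (Irf1, Ifih1, Herc6, Isg20 and Gbp2) and 5 lower (Dhx58, Usp18, Oas1a, Oasl2 and Ifi44), and 32 did not pass. That is 23.8% of the set, beside 26.8% of all tested genes (14.1% higher and 12.6% lower). The median log2 fold change was 0.06 for the set and -0.01 for all tested genes. Libraries did not overlap for 7 of the 42 genes (Irf1, Ifih1, Herc6 and Isg20 higher; Usp18, Oas1a and Oasl2 lower), beside 14.9% of all tested genes (8.13% higher and 6.75% lower). By library totals alone, which moved the median of all genes to 0.10, the split was 10 higher and 3 lower. With the acinar covariate, Irf1 and Ifih1 passed as higher and Usp18 and Oas1a as lower, and 2052 of all genes passed.

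Between the 2 transgenes, hIAPP islets had 15 genes lower and 1 higher than rIAPP islets, with 26 not passing. The 15 were Irf1, Irf7, Ifih1, Eif2ak2, Isg15, Herc6, Ifit2, Oasl1, Mx2, Rsad2, Cmpk2, Xaf1, Igtp, Irgm1 and Iigp1, and the gene higher in hIAPP was Usp18. The share called was 38.1% of the set, beside 27.6% of all tested genes (13.5% higher and 14.1% lower). Its median log2 fold change was -0.24, against less than 0.01 in size for all tested genes, and 30 of the 42 estimates were below 0. Libraries did not overlap for 5 genes (Irf1, Irf7, Ifih1 and Eif2ak2 lower, Usp18 higher), beside 13.4% of all tested genes (6.52% higher and 6.85% lower). All 16 calls held with the acinar covariate. Those of Isg15, Oasl1 and Xaf1 were lost with no low-count filter, and those of Igtp and Mx2 without hIAPP 5 and hIAPP 6. The 3 comparisons share libraries in pairs, so their values are set side by side and not counted as separate evidence.

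**Figure D2:**
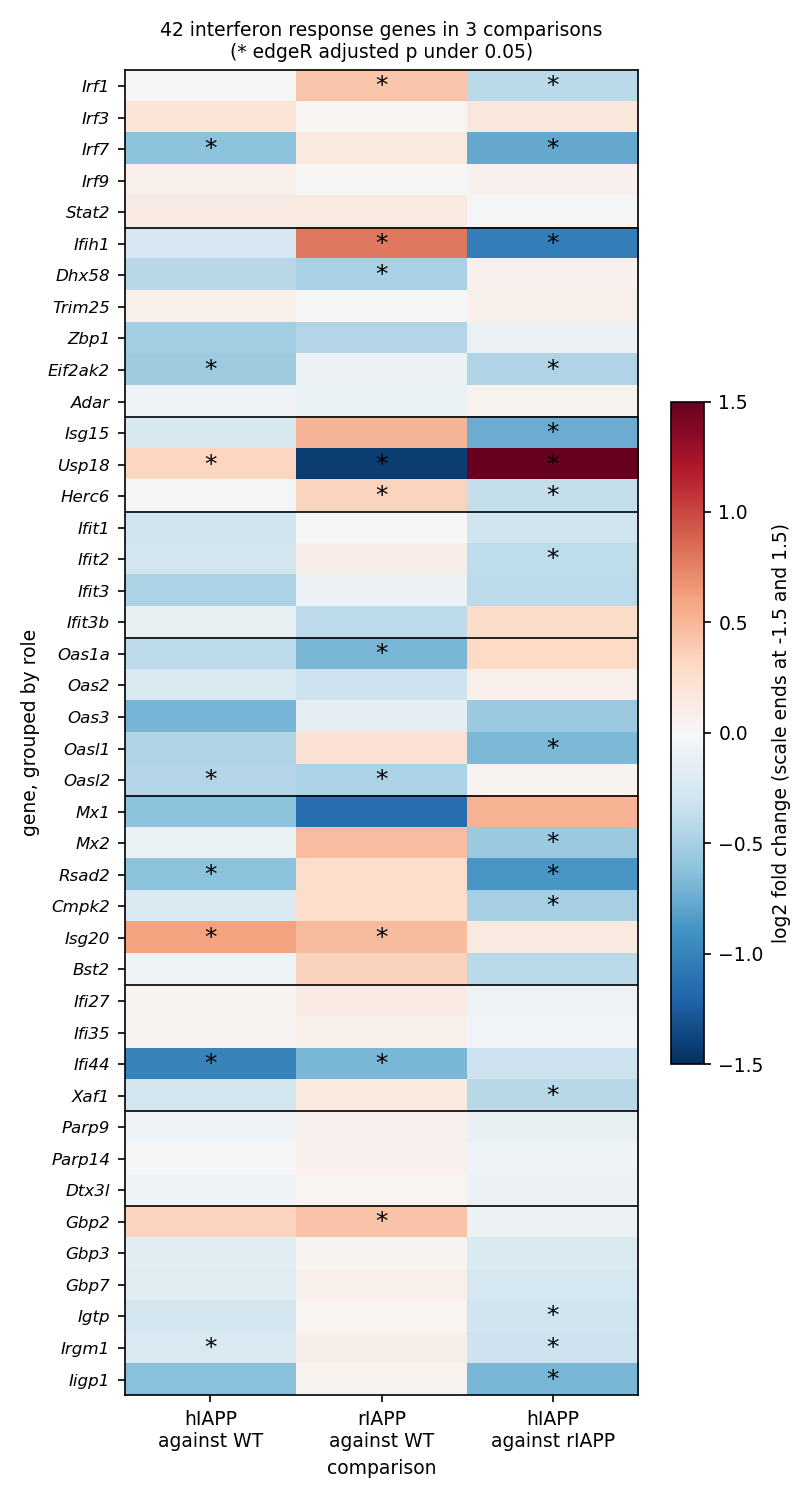
Log2 fold change of each of the 42 genes in hIAPP against WT, rIAPP against WT and hIAPP against rIAPP islets (colour scale in log2 units; a star marks an edgeR adjusted p under 0.05). The colour for hIAPP against rIAPP is mainly on the lower side (15 stars lower and 1 higher), with Usp18 at 1.74 as the exception.

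The counts were also split by whether the promoter window held the response element core. Against WT, hIAPP islets had 0 higher and 3 lower of the 16 with the core, and 1 higher and 3 lower of the 16 without. In rIAPP islets 2 were higher and 1 lower of those with the core, and 3 higher and 2 lower of those without. Between the transgenes 6 of 16 with the core and 7 of 16 without it were lower in hIAPP islets, with median log2 fold changes of -0.31 and -0.20. Of all tested genes, 8.31% were higher and 7.53% lower in hIAPP against WT. In rIAPP against WT these shares were 14.1% and 12.6%, and between the transgenes 14.1% were lower in hIAPP islets. No test of the difference between these groups of genes was made.

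The interferon ligands themselves were at the limit of detection. Of 21 interferon genes listed, none passed the low-count filter, and all of them together had 101 counts in the 18 libraries. No count at all was found for 13 of the 21, Ifnb1 among them, and Ifnz (63) and Ifng (14) held most of the counts. A count of 3, the limit that a count of 0 allows, corresponds to 0.018 to 0.0274 CPM per library for counting error only. The highest ligand level in any library was 0.0791 CPM, so differences between genotypes were not detectable at this depth.

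Interferon receptors were measured in full, and 3 of 6 were higher in rIAPP than in WT islets, beside 14.1% of all tested genes. Ifnar2, a chain of the type I receptor, rose by 0.36 ± 0.06, edgeR adjusted p = 1.83e-04, on the log2 scale. Ifngr1, the binding chain of the type II receptor, rose by 0.31 ± 0.06, edgeR adjusted p = 2.70e-04. Il10rb, shared by the interferon lambda and interleukin-10 receptors, was higher than in WT in rIAPP (0.32 ± 0.08, edgeR adjusted p = 0.00581) and in hIAPP islets (0.26 ± 0.08, edgeR adjusted p = 0.0359). In hIAPP islets Ifngr2, the second chain of the type II receptor, was also higher than in WT (0.44 ± 0.08, edgeR adjusted p = 6.79e-04), so 2 of 6 receptors were higher there, beside 8.31% of all tested genes. Against rIAPP, hIAPP islets had less Ifnar2 (-0.30 ± 0.06, edgeR adjusted p = 0.00134) and Ifngr1 (-0.23 ± 0.06, edgeR adjusted p = 0.00400) and more Ifngr2 (0.25 ± 0.08, edgeR adjusted p = 0.0185).

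Among 10 genes of JAK-STAT signalling and its inhibitors, the kinases Jak1 and Tyk2 moved in opposite directions in hIAPP islets. Jak1 was lower than in WT in hIAPP (-0.17 ± 0.06, edgeR adjusted p = 0.0422) and rIAPP islets (-0.44 ± 0.06, edgeR adjusted p = 5.06e-06), while Tyk2 was higher in hIAPP islets (0.37 ± 0.08, edgeR adjusted p = 0.00319). Ptpn2, a phosphatase that acts on JAK1, was lower in hIAPP islets (-0.32 ± 0.08, edgeR adjusted p = 0.00794). Socs3, a feedback inhibitor of JAK kinases, was higher in rIAPP islets (0.61 ± 0.18, edgeR adjusted p = 0.0174). In counts, 1 of 10 was higher and 3 lower in hIAPP islets against WT, where 15.8% of all tested genes passed. In rIAPP islets 1 was higher and 2 lower, a share near the 26.8% of all tested genes.

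**Figure D3:**
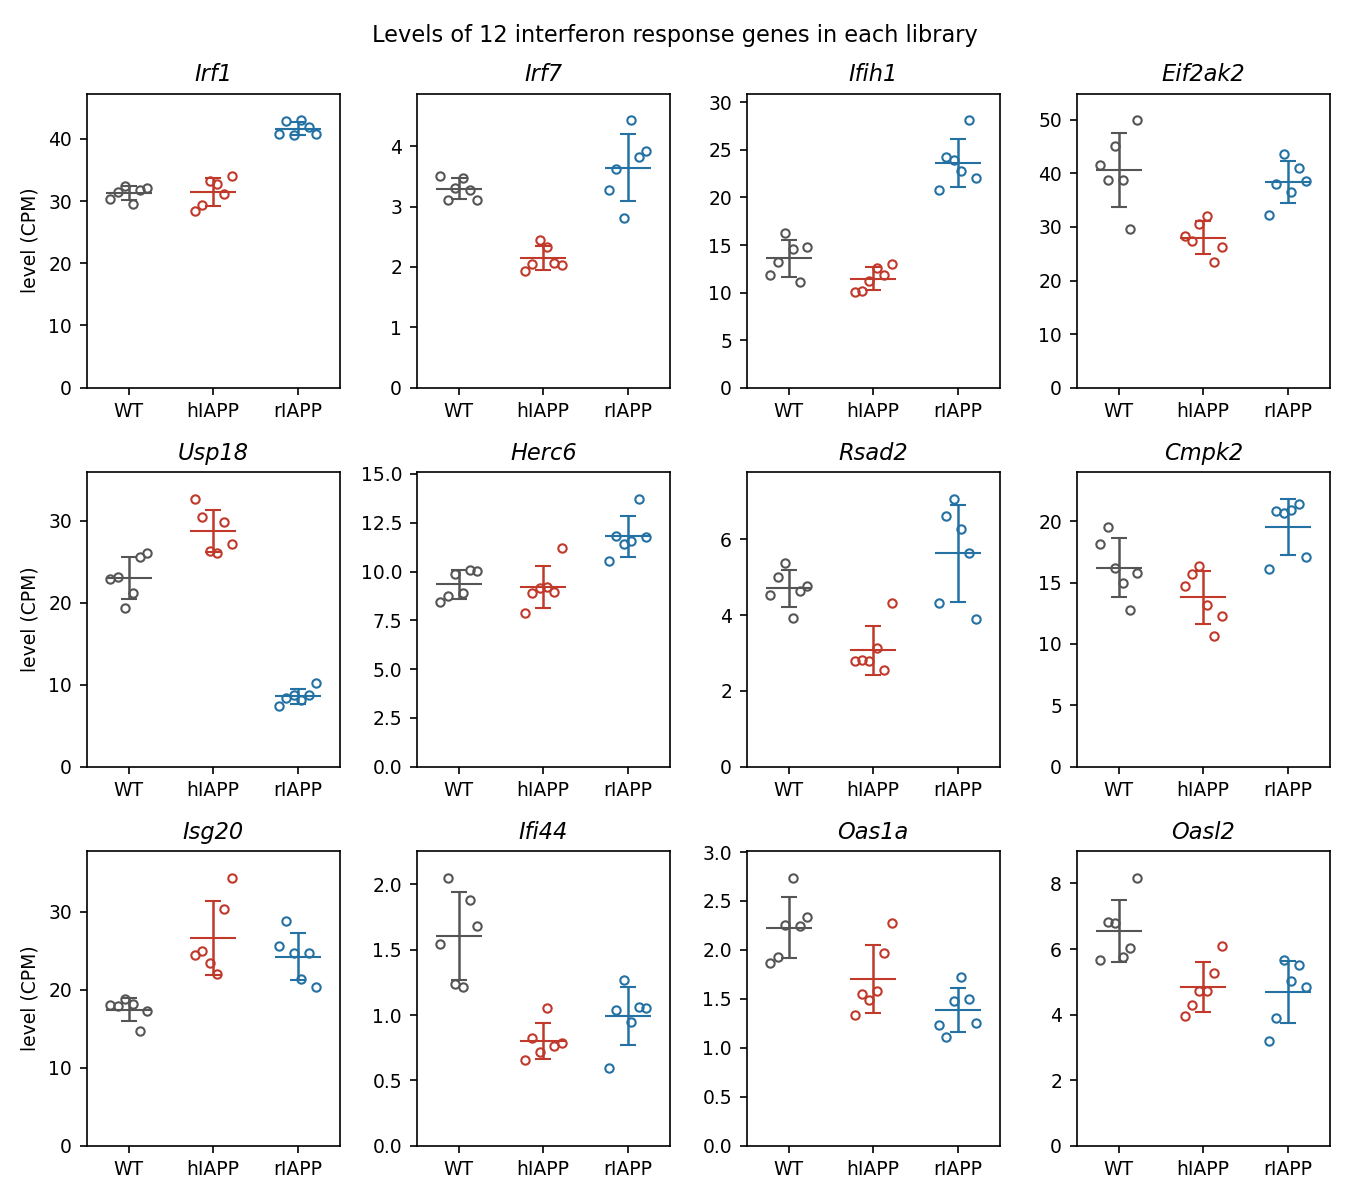
Level of 12 interferon response genes in each library (CPM scaled by TMM, axes from 0); points are libraries, and the bar is the mean ± SD of 6. The 6 rIAPP libraries lie apart from both other genotypes for Irf1, Ifih1 and Usp18, and the 6 hIAPP libraries lie below both for Irf7.

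Of the transcription factors in the set, Irf1 and Irf7 changed, in different genotypes. Irf1 (chromosome 11, 53770014 to 53778374, GRCm38), which drives many type II interferon targets, had a lowest, median and highest level of 29.6, 31.7 and 32.4 CPM in WT, 28.4, 32.0 and 34.0 CPM in hIAPP and 40.6, 41.4 and 43.0 CPM in rIAPP islets. All 6 rIAPP libraries lay above all 12 others, and the WT and hIAPP libraries overlapped. Irf1 was 1.33-fold higher in rIAPP than in WT islets, with a log2 fold change of 0.41 ± 0.05 (edgeR adjusted p = 1.00e-06). Between hIAPP and WT it was 0.01 ± 0.05 (edgeR adjusted p = 0.936), with a 95% interval of -0.09 to 0.11, and against rIAPP hIAPP islets were lower, at -0.40 ± 0.05 (edgeR adjusted p = 1.35e-06).

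Irf7, the amplifier of type I interferon production and itself interferon-induced, was low in hIAPP islets. This gene (chromosome 7, 141262706 to 141266481, GRCm38) had 3.12, 3.29 and 3.52 CPM in WT, 1.93, 2.06 and 2.45 CPM in hIAPP and 2.81, 3.72 and 4.43 CPM in rIAPP islets, as lowest, median and highest. Every hIAPP library lay below every WT and rIAPP library. The log2 fold change was -0.62 ± 0.10 (edgeR adjusted p = 3.45e-04) against WT and -0.76 ± 0.10 (edgeR adjusted p = 9.14e-06) against rIAPP, and 0.14 ± 0.10 (edgeR adjusted p = 0.339) between rIAPP and WT. The 3 other factors passed in no comparison: Irf3, which starts interferon transcription, had means of 25.8, 29.4 and 26.2 CPM in WT, hIAPP and rIAPP islets, and Stat2, a subunit of the type I complex, had 15.9, 17.3 and 17.5 CPM. Irf9, its DNA-binding partner, was at 11.05, 11.7 and 11.1 CPM.

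Among 8 other IRF and IRF-binding genes, Irf8 and Irf5 were higher in hIAPP islets. Irf8, a factor of macrophages and dendritic cells, averaged 5.97 CPM in hIAPP and 2.85 CPM in WT islets, a log2 fold change of 1.06 ± 0.15 (edgeR adjusted p = 6.03e-05). Irf5, also a myeloid factor, was higher by 0.89 ± 0.17, edgeR adjusted p = 0.00133. They were the only 2 of the 8 called there, beside 8.31% of all tested genes higher, and the macrophage marker sum was also above that of every WT library. In rIAPP islets 2 of the 8 were higher than in WT and none was lower, beside 14.1% and 12.6% of all tested genes. Irf2bpl was among the higher genes (0.35 ± 0.09, edgeR adjusted p = 0.00550).

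The RNA sensors differed from one another. Ifih1 encodes MDA5, which detects long double-stranded RNA and whose variants affect type 1 diabetes risk. It lies on chromosome 2 at 62595798 to 62646255 (GRCm38). Its lowest, median and highest levels were 11.1, 13.9 and 16.3 CPM in WT, 10.1, 11.5 and 13.0 CPM in hIAPP and 20.7, 23.3 and 28.1 CPM in rIAPP islets. The lowest rIAPP library was above the highest of the 12 others. Ifih1 was 1.73-fold higher in rIAPP than in WT islets (log2 fold change 0.79 ± 0.09, edgeR adjusted p = 1.94e-06) and lower in hIAPP than in rIAPP islets (-1.04 ± 0.09, edgeR adjusted p = 5.76e-08). Against WT, the hIAPP value was -0.25 ± 0.09 (edgeR adjusted p = 0.0818), which did not pass.

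Dhx58, or LGP2, a regulator of MDA5, went the other way in rIAPP islets. Its levels were 2.06, 2.48 and 3.01 CPM in WT, 1.496, 1.86 and 2.32 CPM in hIAPP and 1.30, 1.77 and 2.16 CPM in rIAPP islets. Groups overlapped at their edges, and the log2 fold change was -0.49 ± 0.15 (edgeR adjusted p = 0.0168) in rIAPP and -0.42 ± 0.15 (edgeR adjusted p = 0.0581) in hIAPP islets against WT. The rIAPP call was lost with library totals and with the acinar covariate.

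Eif2ak2 encodes PKR, the kinase that halts translation on sensing double-stranded RNA. Its levels were 29.6, 40.2 and 49.9 CPM in WT, 23.5, 27.9 and 32.0 CPM in hIAPP and 32.3, 38.3 and 43.7 CPM in rIAPP islets. WT 5 was the lowest WT library and fell inside the hIAPP range, while all hIAPP libraries were below all rIAPP libraries. hIAPP islets were lower than WT, at -0.54 ± 0.10 (edgeR adjusted p = 0.00120), and lower than rIAPP, at -0.45 ± 0.10 (edgeR adjusted p = 0.00200). Trim25, a ubiquitin ligase that activates RIG-I, averaged 50.3, 52.9 and 50.3 CPM in WT, hIAPP and rIAPP islets. Adar, which edits double-stranded RNA and so hides it from MDA5, averaged 40.4, 38.9 and 37.6 CPM. Neither passed in any comparison, nor did Zbp1, a Z-form nucleic acid sensor with 223 counts in all.

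Upstream sensors and adaptors outside the set were tested as a list of 17. In rIAPP islets 5 were higher and 1 lower than in WT, beside 14.1% and 12.6% of all tested genes. The higher genes included Mavs, the adaptor of MDA5 (0.28 ± 0.06, edgeR adjusted p = 0.00252), Traf3 (0.23 ± 0.05, edgeR adjusted p = 0.00358) and Samhd1, which depletes nucleotides (0.58 ± 0.09, edgeR adjusted p = 3.19e-05). Tlr7, an endosomal RNA sensor of immune cells, was the gene that was lower in rIAPP (-1.20 ± 0.27, edgeR adjusted p = 0.00216), and it was higher in hIAPP than in WT islets (0.82 ± 0.26, edgeR adjusted p = 0.0388). Aim2, a DNA sensor, was the other gene higher in hIAPP islets (0.70 ± 0.20, edgeR adjusted p = 0.0190), and none of the 17 was lower there. The hIAPP count of 2 of 17 is below the 15.8% of all tested genes that passed. Macrophage marker sums followed the same order, with hIAPP above WT and rIAPP below it.

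Members of the ISG15 system, a ubiquitin-like modifier with its enzymes, showed the set's largest difference. Usp18 removes ISG15 from proteins and also blocks the type I receptor at IFNAR2. This gene (chromosome 6, 121245906 to 121270917, GRCm38) had lowest, median and highest levels of 19.3, 23.0 and 26.1 CPM in WT, 26.1, 28.5 and 32.6 CPM in hIAPP and 7.36, 8.56 and 10.2 CPM in rIAPP islets. The highest rIAPP library was far below the lowest of the 12 others. Usp18 was 2.68-fold lower in rIAPP than in WT islets, a log2 fold change of -1.42 ± 0.08 (edgeR adjusted p = 1.38e-10). It was 1.25-fold higher in hIAPP than in WT islets (0.32 ± 0.08, edgeR adjusted p = 0.0115), where only the highest WT and lowest hIAPP libraries overlapped, at 26.1 CPM each. Between the transgenes it was 3.34-fold higher in hIAPP, at 1.74 ± 0.08 (edgeR adjusted p = 8.12e-12).

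The ligase of the system was higher in rIAPP islets, where Usp18 was lower. Herc6, the main ISG15 ligase of mice, had 8.45, 9.40 and 10.1 CPM in WT, 7.90, 9.06 and 11.2 CPM in hIAPP and 10.5, 11.7 and 13.7 CPM in rIAPP islets. All rIAPP libraries exceeded all WT libraries, and hIAPP 6, at 11.2 CPM, was the 1 hIAPP library inside the rIAPP range. Herc6 was higher in rIAPP than in WT islets, at 0.34 ± 0.08 (edgeR adjusted p = 0.00285), and lower in hIAPP than in rIAPP islets, at -0.36 ± 0.08 (edgeR adjusted p = 0.00186). Isg15 itself (chromosome 4, 156199424 to 156200818), whose promoter stretch opens the sequences above, was sparse, with 668 counts in all. It had 0.203, 0.237 and 0.294 CPM in WT, 0.168, 0.207 and 0.248 CPM in hIAPP and 0.233, 0.339 and 0.479 CPM in rIAPP islets. All groups overlapped, and only the difference between the transgenes passed, at -0.75 ± 0.22 (edgeR adjusted p = 0.0137). The rIAPP value against WT was 0.51 ± 0.21 (edgeR adjusted p = 0.0890).

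Earlier enzymes of the same conjugation chain were on the list of further interferon-stimulated genes, and Uba7 was named after its values were seen. Ube2l6, which hands ISG15 to the ligase, averaged 5.03 CPM in WT, 5.25 in hIAPP and 9.86 in rIAPP islets, with a log2 fold change of 0.97 ± 0.12 (edgeR adjusted p = 3.16e-06) in rIAPP against WT. Uba7, which activates ISG15, was higher in rIAPP islets by 0.38 ± 0.09, edgeR adjusted p = 0.00436. Against rIAPP, hIAPP islets were lower in Ube2l6 (-0.91 ± 0.12, edgeR adjusted p = 7.79e-06) and Uba7 (-0.50 ± 0.09, edgeR adjusted p = 4.27e-04).

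**Figure D4:**
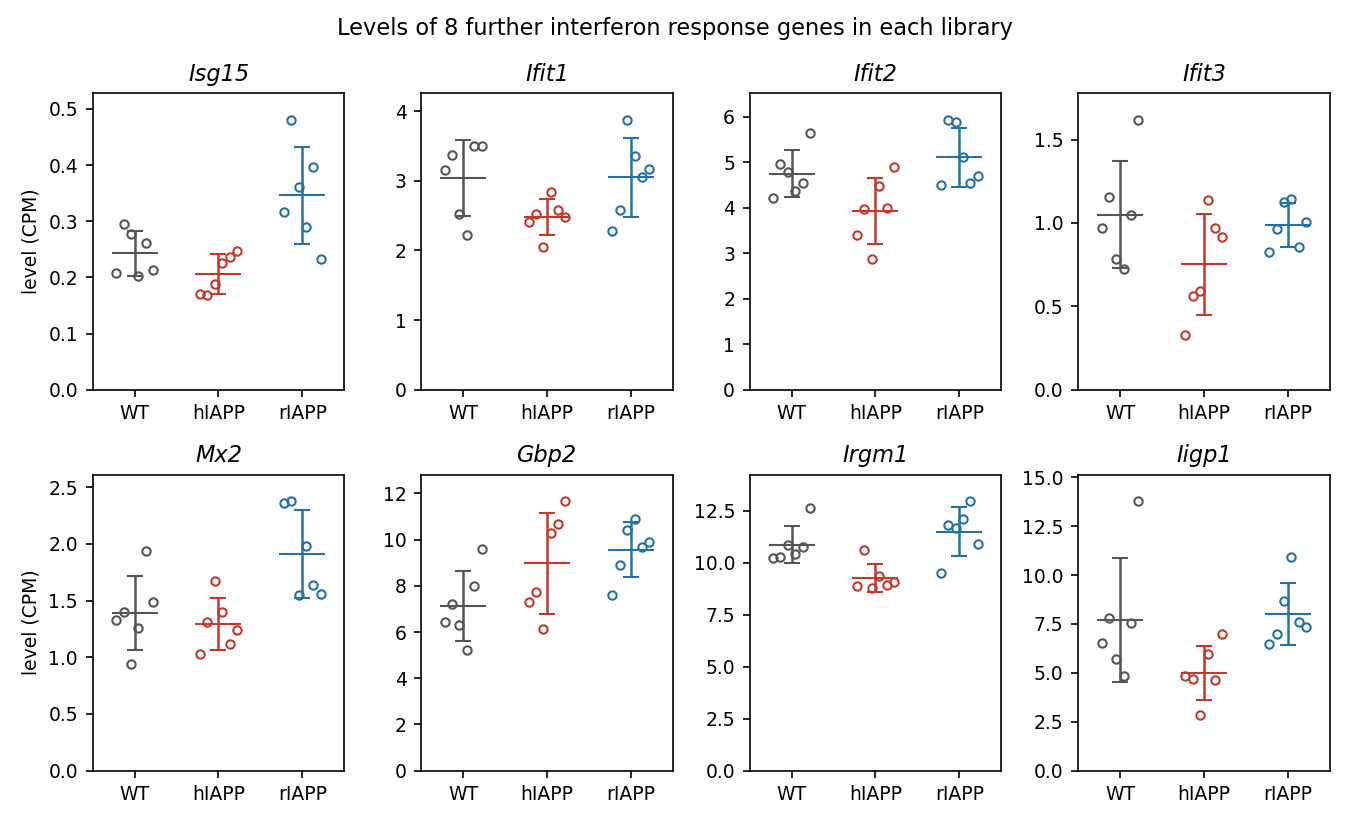
Level of 8 further interferon response genes in each library (CPM scaled by TMM, axes from 0); points are libraries, and the bar is the mean ± SD of 6. Genotypes overlap in all 8, and 1 WT library stands high for Iigp1 (13.8 CPM).

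IFIT proteins bind foreign RNA by its 5′ end. None of the 4 genes passed against WT for either transgene, beside 15.8% (hIAPP) and 26.8% (rIAPP) of all tested genes. Ifit2 alone passed between the transgenes, or 25% of the 4, near the 27.6% of all tested genes. Its levels were 4.22, 4.67 and 5.64 CPM in WT, 2.88, 3.98 and 4.89 CPM in hIAPP and 4.50, 4.90 and 5.92 CPM in rIAPP islets, and the ranges overlapped. The log2 fold change of hIAPP against rIAPP was -0.38 ± 0.12 (edgeR adjusted p = 0.0211), and it missed the threshold without rIAPP 2 or without rIAPP 3 (edgeR adjusted p 0.0556 and 0.0570). Ifit1 averaged 3.05, 2.48 and 3.05 CPM in WT, hIAPP and rIAPP islets, with -0.29 ± 0.14 (edgeR adjusted p = 0.161) in hIAPP against WT. Ifit3 averaged 1.05, 0.751 and 0.988 CPM, and Ifit3b 1.84, 1.69 and 1.40 CPM. Ifit3 and Ifit3b are closely related copies, so how reads were split between them is uncertain. The same holds for Oas1a and its neighbours of the Oas1 cluster, for Tgtp1 and Tgtp2, and for the Gbp family.

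OAS genes encode synthetases that make the second messenger for RNase L, or relatives of them. Of 5 in the set, 1 was lower than WT in hIAPP and 2 were lower in rIAPP islets, and none was higher. Of all tested genes, 7.53% and 12.6% were lower in these comparisons. Oas1a had 1.87, 2.25 and 2.73 CPM in WT, 1.34, 1.57 and 2.28 CPM in hIAPP and 1.11, 1.37 and 1.73 CPM in rIAPP islets. All rIAPP libraries were below all WT libraries, with a log2 fold change of -0.69 ± 0.15 (edgeR adjusted p = 0.00124), and the hIAPP value was -0.39 ± 0.15 (edgeR adjusted p = 0.0762). Oasl2, an OAS-like protein with ubiquitin-like domains, had 5.68, 6.41 and 8.16 CPM, 3.96, 4.71 and 6.11 CPM and 3.21, 4.93 and 5.65 CPM in the same order. It was lower in both transgenic groups, with -0.48 ± 0.13 (edgeR adjusted p = 0.0110) in rIAPP and -0.43 ± 0.14 (edgeR adjusted p = 0.0338) in hIAPP. The hIAPP call was lost on leaving out any 1 of WT 2, WT 3, WT 6 or hIAPP 1 to 4 (edgeR adjusted p 0.0568 to 0.0919). Both calls were lost with library totals (edgeR adjusted p = 0.158 in hIAPP and 0.0721 in rIAPP) and with the acinar covariate (0.224 and 0.148). Oasl1, a translational repressor of Irf7, was called only between the transgenes, at -0.68 ± 0.20 (edgeR adjusted p = 0.0131). Oas2 and Oas3, with 200 and 209 counts in all, did not pass.

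Rsad2 and Cmpk2 lie side by side on chromosome 12 (26442746 to 26456452 and 26469204 to 26479837, GRCm38), and were lower in hIAPP than in rIAPP islets. Rsad2 encodes viperin, which makes a chain-terminating nucleotide from CTP. Its levels were 3.93, 4.71 and 5.38 CPM in WT, 2.55, 2.81 and 4.33 CPM in hIAPP and 3.90, 5.95 and 7.06 CPM in rIAPP islets. Only hIAPP 6, at 4.33 CPM, reached the range of the WT and rIAPP libraries. hIAPP islets were lower than WT, at -0.62 ± 0.15 (edgeR adjusted p = 0.00721), and lower than rIAPP, at -0.87 ± 0.15 (edgeR adjusted p = 1.33e-04). Cmpk2, a mitochondrial nucleotide kinase, had 12.8, 16.0 and 19.5 CPM, 10.6, 13.9 and 16.3 CPM and 16.1, 20.8 and 21.4 CPM in that order. It passed between the transgenes (-0.50 ± 0.11, edgeR adjusted p = 0.00182), with overlap at the edge, and not in hIAPP against WT (-0.23 ± 0.11, edgeR adjusted p = 0.170).

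Isg20 was the antiviral effector that rose with both transgenes. This gene (chromosome 7, 78913424 to 78920396, GRCm38) had 14.7, 17.9 and 18.8 CPM in WT, 21.995, 24.7 and 34.3 CPM in hIAPP and 20.4, 24.7 and 28.8 CPM in rIAPP islets. All 12 transgenic libraries were above all WT libraries, and the transgenic groups overlapped widely. It was 1.52-fold higher in hIAPP (log2 fold change 0.61 ± 0.10, edgeR adjusted p = 4.43e-04) and 1.39-fold higher in rIAPP islets (0.47 ± 0.10, edgeR adjusted p = 0.00144). Between hIAPP and rIAPP the value was 0.13, with a 95% interval of -0.08 to 0.35. Both calls were lost with the acinar covariate, and acinar marker sums were above those of every WT library in all transgenic libraries but hIAPP 1.

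The other antiviral effectors were sparse or did not pass against WT. Mx1, a GTPase against influenza viruses, had 353 counts in all and a log2 fold change of -1.13 ± 0.42 (edgeR adjusted p = 0.0535) in rIAPP against WT. Mx2, which GENCODE labels a polymorphic pseudogene in the mouse reference, averaged 1.39 ± 0.326 CPM in WT, 1.29 ± 0.230 in hIAPP and 1.91 ± 0.387 in rIAPP islets (SD, n = 6). It was lower in hIAPP than in rIAPP islets, at -0.56 ± 0.17 (edgeR adjusted p = 0.0182), and this call was lost without rIAPP 2 (edgeR adjusted p = 0.0513). Bst2, or tetherin, which holds budding virus on the cell surface, averaged 0.922, 0.888 and 1.17 CPM and did not pass.

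Among interferon-induced genes of other kinds, Ifi44 was low in both transgenic groups. Its levels were 1.22, 1.62 and 2.05 CPM in WT, 0.652, 0.774 and 1.05 CPM in hIAPP and 0.597, 1.04 and 1.27 CPM in rIAPP islets. Every hIAPP library was below every WT library, and rIAPP libraries overlapped both. The log2 fold change against WT was -1.002 ± 0.18 (edgeR adjusted p = 7.80e-04) in hIAPP and -0.69 ± 0.18 (edgeR adjusted p = 0.00639) in rIAPP islets. Both calls were lost with the acinar covariate. Xaf1, a pro-apoptotic partner of the apoptosis inhibitor XIAP, passed only between the transgenes, at -0.42 ± 0.13 (edgeR adjusted p = 0.0186). Ifi27, a mitochondrial protein, averaged 10.6, 10.97 and 11.6 CPM, and Ifi35 14.8, 15.2 and 15.6 CPM, and neither passed.

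Parp9, Parp14 and Dtx3l, which encode ADP-ribosyltransferases and a partner ubiquitin ligase that act in interferon signalling, did not pass in any comparison. Parp9 averaged 22.5 ± 2.77, 21.6 ± 1.02 and 23.5 ± 1.05 CPM in WT, hIAPP and rIAPP islets (SD, n = 6). Parp14 averaged 29.9, 29.9 and 31.2 CPM, and Dtx3l 30.1, 29.1 and 30.8 CPM. Their log2 fold changes ranged from -0.12 to 0.06 over the 3 comparisons. For Parp14, the 95% interval was -0.12 to 0.13 in hIAPP and -0.06 to 0.19 in rIAPP against WT. Parp9 and Dtx3l overlap on the genome, and the strand setting of the counting is not stated, so their values may share reads.

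The interferon-induced GTPases defend cells against intracellular microbes and respond mainly to type II interferon. Of 6 in the set, hIAPP islets had 1 lower than WT and 3 lower than rIAPP, beside 7.53% and 14.1% of all tested genes. In rIAPP islets 1 was higher than in WT, beside 14.1% of all tested genes. Irgm1 had 10.2, 10.6 and 12.6 CPM in WT, 8.76, 8.99 and 10.6 CPM in hIAPP and 9.48, 11.8 and 12.9 CPM in rIAPP islets. hIAPP 2, at 10.6 CPM, was the 1 hIAPP library inside the WT range. The log2 fold change was -0.31 ± 0.07 (edgeR adjusted p = 0.00343) against rIAPP and -0.23 ± 0.07 (edgeR adjusted p = 0.0415) against WT. The call against WT was lost on leaving out any 1 of WT 3, WT 4, WT 6, rIAPP 2, rIAPP 3 or any hIAPP library but hIAPP 2 (edgeR adjusted p 0.0517 to 0.112). It was lost under 6 of 10 other settings too: library totals, TMM without the 10 most abundant genes, limma-voom, no low-count filter, the acinar covariate and the omission of hIAPP 5 and hIAPP 6. Over all 10 settings the adjusted p ran up to 0.428, and the call against rIAPP held in each.

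Igtp and Iigp1, of the same family as Irgm1, were lower in hIAPP than in rIAPP islets as well. Igtp ranged over 6.29 to 8.27 CPM in WT, 5.35 to 6.74 CPM in hIAPP and 6.20 to 8.65 CPM in rIAPP islets. Its log2 fold change was -0.30 ± 0.09 (edgeR adjusted p = 0.0168) between the transgenes and -0.27 ± 0.09 (edgeR adjusted p = 0.0504) in hIAPP against WT. Igtp and Irgm2 overlap on the same strand of chromosome 11, so their values may share reads. Iigp1 had 4.84, 7.04 and 13.8 CPM in WT, 2.83, 4.77 and 6.97 CPM in hIAPP and 6.47, 7.49 and 10.9 CPM in rIAPP islets. WT 6 was far above the other WT libraries. Between the transgenes the value was -0.68 ± 0.22 (edgeR adjusted p = 0.0260), and the call was lost without hIAPP 3, rIAPP 3 or rIAPP 4 (edgeR adjusted p 0.0502 to 0.0698).

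Of the 3 guanylate-binding proteins in the set, Gbp2 was called in 1 comparison. Gbp2 averaged 7.12 ± 1.53 CPM in WT, 8.97 ± 2.20 in hIAPP and 9.56 ± 1.18 in rIAPP islets (SD, n = 6). Its log2 fold change in rIAPP against WT was 0.43 ± 0.15 (edgeR adjusted p = 0.0456), and the call was lost on leaving out any 1 of WT 1 to 4 or rIAPP 2 to 6 (edgeR adjusted p 0.0571 to 0.109). Gbp3 averaged 3.35, 2.97 and 3.44 CPM and Gbp7 21.8, 19.2 and 23.0 CPM, and neither passed.

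The further GTPases of these families, 13 genes, split by gene in hIAPP islets, where 3 were higher and 5 lower than in WT, beside 8.31% and 7.53% of all tested genes. Tgtp1 averaged 1.97 CPM in WT and 0.693 in hIAPP islets, a log2 fold change of -1.51 ± 0.24 (edgeR adjusted p = 2.86e-04). Its near-copy Tgtp2 (-1.06 ± 0.25, edgeR adjusted p = 0.00592), Gvin1 (-0.69 ± 0.18, edgeR adjusted p = 0.0148) and Gbp4 (-0.56 ± 0.15, edgeR adjusted p = 0.0152) were also lower. The other called genes of the list were named after their values were seen. Gbp9 was lower (-0.43 ± 0.12, edgeR adjusted p = 0.0207). Gbp8, Gbp10 and Gbp11 were higher, with log2 fold changes of 1.01, 0.79 and 1.92 (edgeR adjusted p = 0.0177, 0.0328 and 0.0417). In rIAPP islets Gbp8 alone passed against WT, as higher (1.43 ± 0.28, edgeR adjusted p = 5.70e-04). Against rIAPP, hIAPP islets had 5 of the 13 lower and none higher, beside 14.1% and 13.5% of all tested genes.

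**Figure D5:**
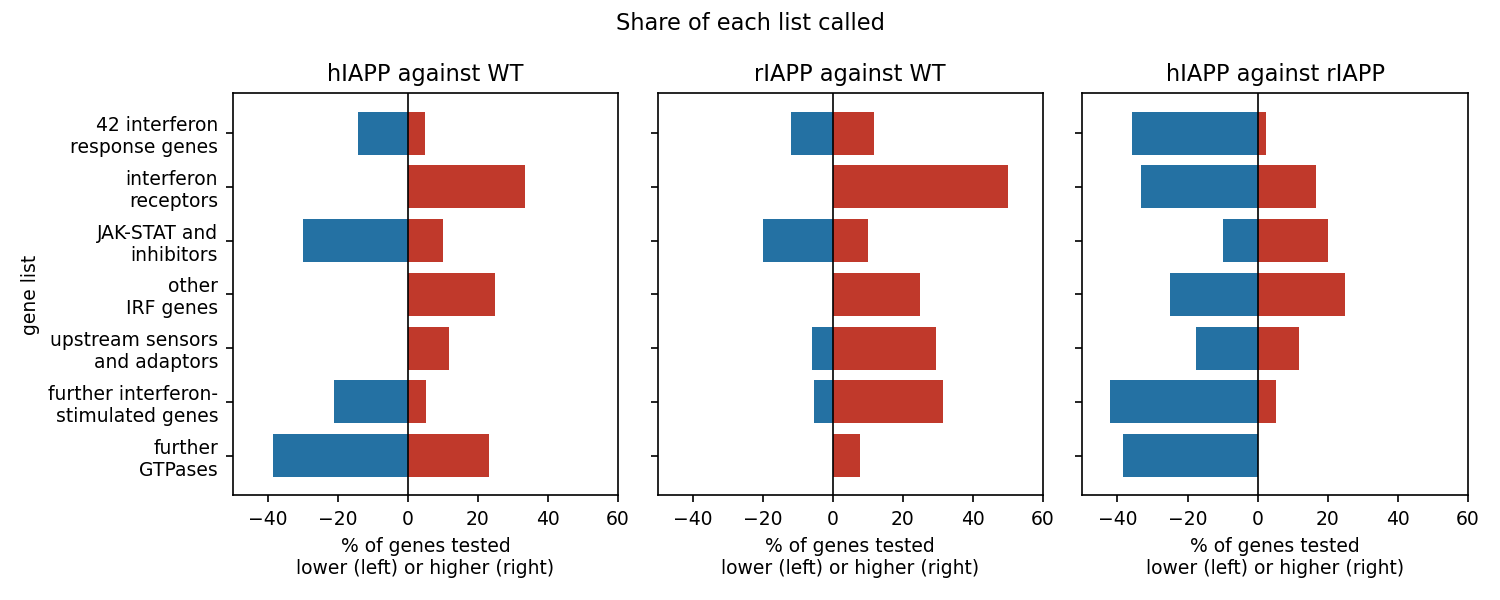
Share of tested genes that passed as higher or lower (percent, edgeR adjusted p under 0.05) in each list of interferon pathway genes and in the 42 interferon response genes, for the 3 comparisons. Between hIAPP and rIAPP, 15 of the 42 genes and 16 of 38 further interferon-stimulated genes were lower in hIAPP.

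A list of 42 further interferon-stimulated genes, of which 38 passed the filter, held more lower than higher calls in hIAPP islets and more higher than lower calls in rIAPP islets. In hIAPP islets 2 were higher and 8 lower than in WT, beside 8.31% and 7.53% of all tested genes, with a median log2 fold change of -0.11. In rIAPP islets 12 were higher and 2 lower, beside 14.1% and 12.6% of all tested genes, with a median of 0.18. Between the transgenes 2 were higher and 16 lower in hIAPP, beside 13.5% and 14.1% of all tested genes. Cxcl10, a chemokine that draws T cells, was 1 of the 2 higher genes: it averaged 0.475 CPM in hIAPP and 0.0543 in WT islets, a log2 fold change of 3.12 ± 0.54 (edgeR adjusted p = 5.47e-04). Rtp4 (-0.67 ± 0.13, edgeR adjusted p = 0.00164), Parp12 (-0.25 ± 0.06, edgeR adjusted p = 0.0112) and Pnpt1 (-0.25 ± 0.06, edgeR adjusted p = 0.0105) were among the lower genes in hIAPP islets. In rIAPP islets Ly6e, a membrane protein that restricts viral fusion, rose by 0.35 ± 0.06, edgeR adjusted p = 2.45e-04, and Nmi, a binding partner of STAT proteins, by 0.34 ± 0.07, edgeR adjusted p = 6.09e-04. Tdrd7 was 1 of the 2 lower genes there (-0.31 ± 0.07, edgeR adjusted p = 0.00318). Macrophage marker sums were highest in hIAPP and endothelial marker sums highest in rIAPP libraries, and their part in these counts was not tested.

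All pathway lists together held 117 genes, of which 92 passed the filter. Against WT, hIAPP islets had 12 higher and 16 lower (30.4% of the 92, beside 15.8% of all tested genes). In rIAPP islets 24 of the 92 were higher and 5 lower, beside 14.1% and 12.6% of all tested genes. In either direction the share of 31.5% is near the 26.8% of all tested genes. Between the transgenes, 9 were higher and 29 lower in hIAPP (41.3%, beside 27.6%). hIAPP 5 and hIAPP 6 had the highest acinar and macrophage marker sums among hIAPP mice. Without them the split against WT was 7 higher and 5 lower, and 1675 of 20600 tested genes passed. With the acinar covariate the split was 2 and 2 in hIAPP and 6 and 2 in rIAPP islets. Of all 20244 genes, 749 and 2052 then passed, against 3208 and 5417 in the main fit. By library totals the split was 19 and 4 in hIAPP islets, where 3619 of all genes passed. In the 42-gene set, omitting hIAPP 5 and hIAPP 6 left 2 higher and 6 lower.

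Within a genotype, some libraries were often the highest or the lowest of their group. WT 6 held the highest WT level in 18 of the 42 genes and the lowest in 2. hIAPP 6 held the highest hIAPP level in 15 and hIAPP 3 the lowest in 13. In the rIAPP group, rIAPP 1 was lowest in 20 genes and rIAPP 4 highest in 12. These counts are descriptive, since genes of the set are not independent of one another. They were not made for all tested genes, so they do not single out this set. The median shift of the 42 genes from their group mean was small, on the log2 scale. It was 0.13 in WT 6, 0.095 in hIAPP 6, -0.10 in hIAPP 3, -0.19 in rIAPP 1 and 0.096 in rIAPP 4.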

How the data were processed

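RNA of 18 islet preparations was depleted of ribosomal RNA and sequenced, per the labels' protocols. The submitters' processing notes name STAR, HTSeq and GRCm38 (mm10), with no annotation or strand setting stated. The deposited values are estimated counts per gene, since 39.2% of the values above 0 (182064) are not whole, and the sources name no step that made them so. Values were rounded to whole numbers. Genes were kept by filterByExpr (minimum count 10, minimum total 15), scaled by TMM and fitted with edgeR 4.0.16 (quasi-likelihood, 1 mean per genotype, all 18 libraries) in R 4.3.3. P-values were adjusted by Benjamini-Hochberg over 20244 genes and called under 0.05. The SE is the log2 fold change divided by the root of F. Groups come from the genotype labels, and libraries are numbered in the order of the records. The 42 genes and all lists were chosen with earlier results of these data known. Every gene of the set is named, and up to 4 called genes of each pathway list by the smallest p, with exceptions stated; some items are not reported here. Alternatives were RLE factors, library totals, TMM without the 10 most abundant genes, DESeq2 1.42.0, limma-voom (limma 3.58.1), 2 other low-count filters, only the 2 genotypes compared, an acinar covariate (mean log2 CPM, prior count 2), and leaving out libraries. The fit was tested on simulated counts.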

Additional observations from a re-analysis of the deposited data

Results flagged for a closer look

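Within each genotype, the highest and the lowest of the 6 libraries were compared with the rest for every gene, and 8 of 126 groups had a library that stood apart from the other 5. Chance alone flags about 1 in 20 groups.

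WT 6 stood high for 3 genes. Its level of Iigp1 was 13.8 CPM, against 4.84 to 7.81 in the other WT libraries. Its level of Parp9 was 27.8 CPM against 20.6 to 23.0, and its level of Irgm1 was 12.6 CPM against 10.2 to 10.8. In the hIAPP group, hIAPP 6 had 4.33 CPM of Rsad2 where the others had 2.55 to 3.14, and hIAPP 2 had 10.6 CPM of Irgm1 where the others had 8.76 to 9.34. Among rIAPP libraries, rIAPP 6 had 2.19 CPM of Ifit3b against 1.09 to 1.47, and rIAPP 3 had 0.180 CPM of Oas3 against 0.0503 to 0.0954. The 1 low library was rIAPP 1, with 21.5 CPM of Parp9 against 23.3 to 24.4.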

How the results depend on the processing

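No gene of the set changed direction under any alternative while called. Over 10 alternatives and 18 omissions of 1 library, 2 of the 8 calls of hIAPP against WT held throughout (Irf7 and Usp18), as did 4 of the 10 of rIAPP against WT (Irf1, Ifih1, Oas1a and Usp18) and 9 of the 16 of hIAPP against rIAPP. The acinar covariate moved the most: the set then had 1 higher and 1 lower gene with a median of -0.13 in hIAPP against WT, and 2 and 2 in rIAPP against WT. The 117 pathway genes then had 2 and 2, and 6 and 2. Fewer of all tested genes passed as well, 749 and 2052, where 3208 and 5417 passed without the covariate. Acinar marker level and genotype go together and cannot be told apart in a fit with that covariate. With library totals, the set had 4 higher and a median of -0.11 in hIAPP (-0.21 relative to all genes) and 10 higher, 3 lower and a median of 0.18 in rIAPP against WT. Pathway genes had 19 higher and 4 lower, and 3 lower. DESeq2 called 10 of the set lower in hIAPP against WT, and a mean of at least 1 CPM gave a median of -0.13. No filter gave 7 higher and 10 lower pathway genes, and omitting hIAPP 5 and hIAPP 6 gave 7 and 5. In that order, 3884, 3294, 2493 and 1675 of all genes passed in hIAPP against WT. A fit of only the 2 transgenic genotypes called 2 of the set higher in hIAPP.

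Leaving out 1 library at a time, hIAPP against WT had 2 to 3 of the set higher and 4 to 9 lower, a median of -0.23 to -0.18, and 7 to 13 pathway genes higher and 9 to 17 lower. For rIAPP against WT these were 4 to 8 (8 without rIAPP 6), 5 to 6, 0.02 to 0.11, 18 to 25 and 4 to 8 (8 without rIAPP 4). For hIAPP against rIAPP they were 1 to 2 (2 without WT 5), 13 to 17, -0.31 to -0.16, 9 to 10 and 22 to 30. No paired analysis was possible because the labels give animal numbers that no 2 groups share. Depth limits Oas2, Oas3, Zbp1, Mx1 and the ligands, where only large differences could have been called.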

Other observations

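Genes within 500 kb were counted for all 42 genes and looked at by name for Irf1, Irf7, Ifih1, Usp18 and Isg20, after their values had been seen. In rIAPP against WT islets, the share of neighbours called ran from 0% to 60% over the 42 genes, with a median of 25%, beside 26.8% of all tested genes. It was highest for Usp18 (6 of 10), followed among those 5 genes by Isg20 (7 of 13) and Ifih1 (3 of 6), while Irf7 (10 of 48) and Irf1 (3 of 18) were below the share of all genes. Near Isg20, Abhd2, 359.8 kb away, was lower, with a log2 fold change of -0.88 ± 0.08 (edgeR adjusted p = 5.43e-08). The gene 5330411O13Rik, 95.1 kb away, was higher, at 2.91 ± 0.37 (edgeR adjusted p = 4.65e-06). In hIAPP against WT islets, where Isg20 was higher too, none of its 13 neighbours passed. Within 500 kb of Ifih1 on chromosome 2, 6 other genes were tested, and 3 were higher in rIAPP than in WT islets. Distances here run between the lower genome coordinates of 2 genes, whatever their strand. Those to Gca and Kcnh7 therefore include the length of Ifih1 itself. Gca, which encodes the calcium-binding protein grancalcin and lies 68.5 kb away by this measure, had a log2 fold change of 1.29 ± 0.09 (edgeR adjusted p = 6.08e-10). Kcnh7, a potassium channel gene 97.6 kb away, had 1.49 ± 0.24 (edgeR adjusted p = 8.72e-05). Fap, a fibroblast protease gene 94.9 kb away on the other side, had 0.86 ± 0.18 (edgeR adjusted p = 8.72e-04). Against WT in hIAPP islets, Fap was higher, at 1.41 ± 0.18 (edgeR adjusted p = 2.05e-05), and Gca and Kcnh7 did not pass. The glucagon gene Gcg and Dpp4, in the same window, did not pass in either comparison with WT.

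Within 500 kb of Usp18 on chromosome 6, 10 other genes were tested, of which 2 were higher and 4 lower in rIAPP than in WT islets. Atp6v1e1, a subunit of the vacuolar proton pump, lies 451.6 kb away by the same measure. It had a log2 fold change of -0.61 ± 0.07 (edgeR adjusted p = 1.89e-06). Nearer genes went both ways. Tuba8, 35.2 kb away, was higher (0.52 ± 0.15, edgeR adjusted p = 0.0116). Pex26, 62.2 kb away, was lower (-0.24 ± 0.07, edgeR adjusted p = 0.0116). Gm44148, 9.3 kb away, did not pass (0.38 ± 0.22, edgeR adjusted p = 0.222). The sources name no transgene insertion site, and no cause of these values was tested.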
